A study of Homo sapiens with 12 samples.

Results

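The genes described here are 38 nucleolar ribosome biogenesis genes, chosen by a fixed list of symbols, a rule that sets no threshold on measured values. The list was drawn up with earlier results of these data known. All 38 were found among the 60649 genes counted in each library. They comprise 8 genes of RNA polymerase I and its factors, 5 of nucleolar RNA-binding and regulatory proteins, 8 of small nucleolar ribonucleoprotein (snoRNP) proteins, 9 of small-subunit assembly and 8 of large-subunit assembly. RNA from SBC3, an established human small cell lung cancer line grown as spheroids, was sequenced after polyadenylated RNA was selected. The 4 groups, with 3 libraries each, were control, teriflunomide, lurbinectedin, and teriflunomide with lurbinectedin (the combination). Teriflunomide inhibits DHODH, an enzyme of pyrimidine synthesis, and lurbinectedin binds DNA and interferes with the transcription of genes. The sources used here give neither doses nor times, and all groups share a single cell line. They do not say that the 3 libraries of a group came from separate cultures, so the p-values measure only the spread between these libraries.

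Ribosomes are assembled in the nucleolus. RNA polymerase I transcribes the ribosomal DNA into a long precursor, snoRNPs modify that precursor at sites chosen by their guide RNAs, and assembly factors cut, fold and package it into the small and the large subunit before export. The pathway consumes much of a growing cell's nucleotides and transcription, and drugs that deplete pyrimidines or block transcription are known to disturb the nucleolus. The libraries hold messenger RNA for the proteins of this pathway, and ribosomal RNA synthesis itself was not measured.

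Total counts ranged from 23206414 to 33222162 per library. Of 8 small cell lung cancer markers checked, NEUROD1, SYP and DLL3 averaged at least 1 CPM (a count scaled to a common library size). POU2F3, CHGA and NCAM1 were below 1 CPM and INSM1 was at 0 in every library. Summed CPM of those markers was 22.4 to 23.6 in control and 34.1 to 36.2 with lurbinectedin. They did not move together. From control to lurbinectedin, mean CPM went from 16.8 to 30.9 for SYP, 1.96 to 2.33 for DLL3 and 4.025 to 1.62 for NEUROD1. Among 4 epithelial markers KRT8 alone was above 1 CPM, while the 4 leukocyte markers summed to at most 0.479 CPM and the 4 endothelial markers to at most 0.629 CPM. The 5 fibroblast markers summed to 519 to 549 CPM in control and 186 to 220 CPM with lurbinectedin, almost all of it COL1A1 and COL1A2, with LUM at 0 and DCN at no more than 0.0484 CPM. The part of these markers in the results below was not tested. Beyond the groups, 2 libraries stood apart from their replicates, the third teriflunomide library and the second combination library. Their share of counts on the mitochondrial genome was 22.6% and 24.9%, against 8.42% and 8.43% in the other teriflunomide libraries and 14.6% and 13.1% in the other combination libraries. Control libraries had 6.26% to 7.17% and lurbinectedin libraries 13.8% to 17.0%. Values that rest on these 2 libraries are given with and without them.

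Levels were expressed as CPM after scaling by the trimmed mean of M values (TMM), and as RPKM, which divides CPM by the exonic length in kilobases, where genes are compared with each other. All 38 genes passed the filter on low counts, with 66 to 82655 counts in a library. In control the RPKM of NPM1 was 239 ± 10.98 and that of NCL was 180 ± 8.74 (SD, n = 3). These genes encode nucleophosmin and nucleolin, the abundant RNA-binding chaperones of the nucleolus. NOLC1, which encodes a snoRNP chaperone, followed at 116 ± 3.70 RPKM. DDX21, FBL and NOP10 stood next at 102 ± 4.76, 101 ± 2.39 and 100 ± 3.77 RPKM, and these 3 did not differ beyond their spread. The lowest levels were those of POLR1C at 6.10 ± 0.171, PPAN at 2.47 ± 0.286 and NOP2 at 0.488 ± 0.0581 RPKM. For NOP2, 54.4% of the exonic bases also belong to another annotated gene on the same strand, and for PPAN 49.2%, so both counts are uncertain. Genes on the opposite strand overlap 28.9% of the exonic bases of NHP2, 20.7% of NOP14, 20.4% of NOB1, 18.5% of NOP16 and 18.3% of POLR1C. Use of strand is not stated, so reads of the partners cannot be told apart.

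**Figure D1:**
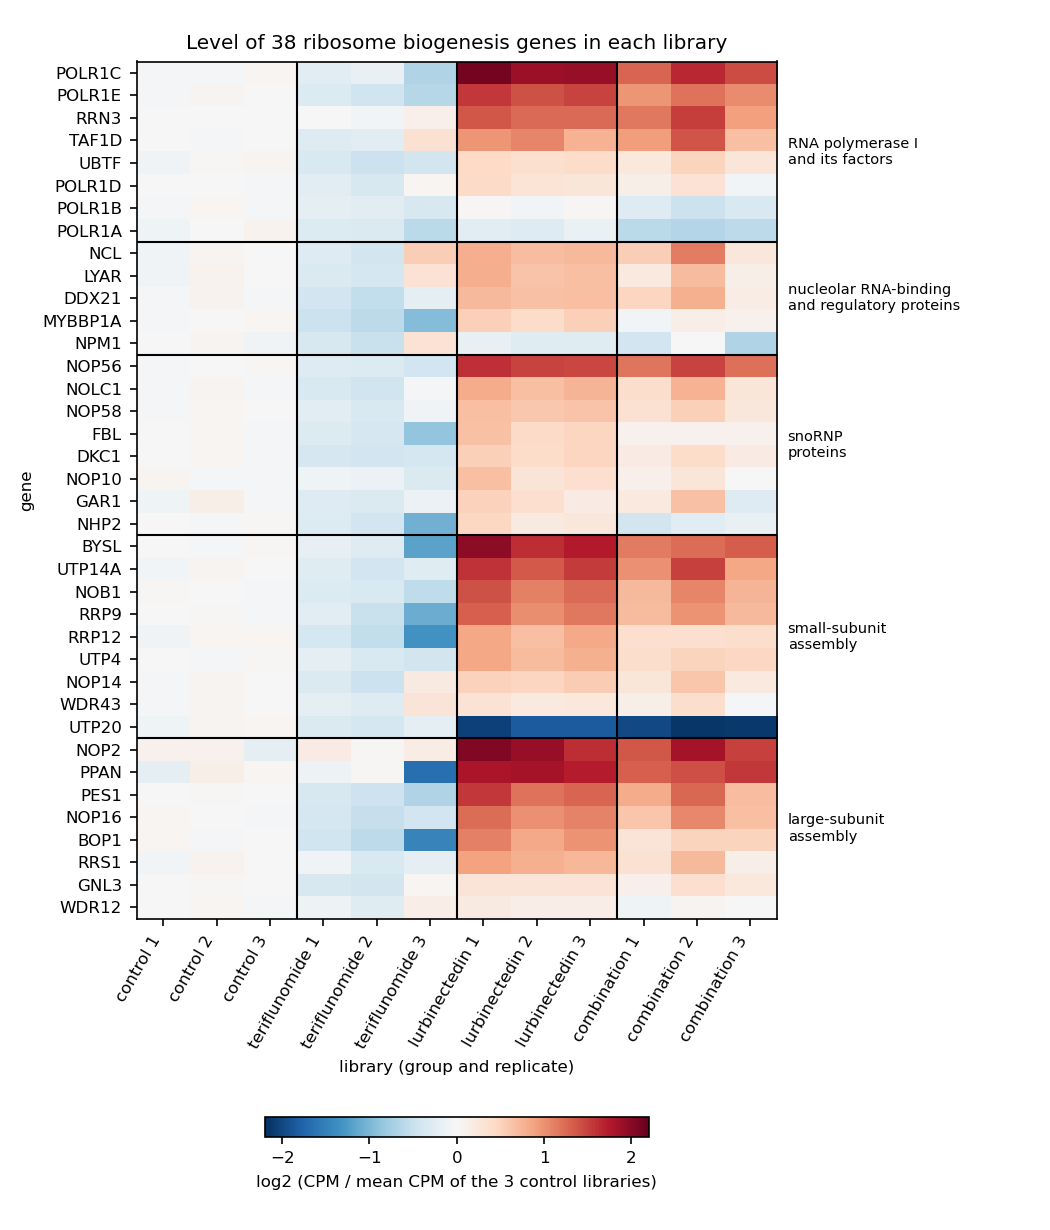
Each cell is the log2 ratio of a gene's CPM in a library (columns, by group and replicate) to its mean CPM in the 3 control libraries, with genes in rows grouped by role. The lurbinectedin and combination columns are red for most genes and dark blue for UTP20, the teriflunomide columns are mostly pale blue, and the third teriflunomide library shows a wider spread of colours than the other teriflunomide libraries.

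Lurbinectedin alone raised most of these messages. Against control, 30 of the 38 genes were higher and 1 was lower at a Benjamini-Hochberg adjusted p under 0.05 over all genes tested (called below), while 71.6% of all 16683 genes tested were called and 36% were called higher. The median log2 fold change was 0.71 over the 38 genes and 0.05 over all genes. Of the 38 genes, 12 were called at least 2-fold higher, against 20.1% of all genes. The 3 lurbinectedin libraries all exceeded the 3 control libraries for 34 genes and were all lower for POLR1A, NPM1 and UTP20. Among all genes the shares were 42.4% and 40.8%. Without both outlying libraries, which are not in this comparison but enter its estimate of the spread, 34 genes were called higher and 3 lower, against 40.4% and 39.2% of all genes. In bulk RNA, a change in the number of cells and a change in RNA per cell cannot be told apart, and these folds are relative to the other RNA of a library. With library size as the only scaling the median of all genes moved from 0.05 to -0.18, and 22 of the 38 genes were then called higher and 3 lower, against 25.9% and 40.2% of all genes. DKC1, FBL, GNL3, MYBBP1A, NOP10, POLR1D, RRP12 and UBTF were then no longer called, and NPM1, POLR1A and UTP20 were the genes called lower.

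RNA polymerase I did not move as a unit. POLR1A (ENSG00000068654.17, GRCh38 chr2:86020216-86106155, minus strand) encodes the largest subunit. Its control libraries held 207, 224 and 233 CPM and its lurbinectedin libraries 188, 181 and 200 CPM. The lurbinectedin libraries were all lower, but the log2 fold change of -0.22 ± 0.10 (SE) was not called (adjusted p = 0.0535). It was called lower without the third teriflunomide library, without both outlying libraries and with library size as the only scaling, when its log2 fold change was -0.45 ± 0.16. POLR1B, for the other catalytic subunit, held 110, 116 and 110 CPM in control and 114, 108 and 113 CPM with lurbinectedin (adjusted p = 0.978), so these ranges overlapped.

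The smaller subunits and the initiation factors of the enzyme that are among the 38 genes rose with lurbinectedin. TAF1B, a promoter selectivity factor gene outside the 38, was called lower and is given below. POLR1C, a subunit shared with RNA polymerase III, went from 33, 33 and 34.65 CPM in control to 144, 123 and 127 CPM, a log2 fold change of 1.97 ± 0.14 (adjusted p = 2.37e-08). That was the largest rise among the 38 genes. POLR1E (ENSG00000137054.16, chr9:37485948-37503697, plus strand), a subunit particular to RNA polymerase I, held 62.2, 66.7 and 64.1 CPM in control. With lurbinectedin it reached 189, 169 and 180 CPM, a log2 fold change of 1.48 ± 0.11. RRN3, which carries the polymerase to the promoter, held 56.0 to 57.0 CPM in control and 133 to 145 CPM with lurbinectedin, a log2 fold change of 1.28 ± 0.13. TAF1D, of the promoter selectivity factor, and UBTF, the upstream binding factor, rose by 0.95 ± 0.18 and 0.40 ± 0.09 on the log2 scale. POLR1D, also shared with RNA polymerase III, rose by 0.33 ± 0.12, a call that was lost when any control library or the first or second lurbinectedin library was left out.

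Among the nucleolar RNA-binding proteins 4 of 5 genes were called higher with lurbinectedin, against 36% of all genes. NCL held 1522, 1678 and 1609 CPM in control and 2785, 2556 and 2624 CPM with lurbinectedin, a log2 fold change of 0.73 ± 0.23 (adjusted p = 0.0124). LYAR, which encodes a nucleolar growth regulator, the RNA helicase gene DDX21 and MYBBP1A rose by 0.70 ± 0.18, 0.68 ± 0.14 and 0.48 ± 0.12 on the log2 scale. NPM1 was the exception. It held 2001, 2074 and 1893 CPM in control and 1767, 1659 and 1659 CPM with lurbinectedin, with a log2 fold change of -0.23 ± 0.19 that was not called (adjusted p = 0.290). All its lurbinectedin libraries were nevertheless below control, and with library size as the only scaling, or without both outlying libraries, it was called lower.

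Of the snoRNP genes 6 of 8 were called higher with lurbinectedin, against 36% of all genes. NOP56, a core protein of the methylating box C/D snoRNPs, held 220, 225 and 228 CPM in control and 682, 631 and 620 CPM with lurbinectedin, a log2 fold change of 1.52 ± 0.10. Its partners in the same particle rose less. FBL (ENSG00000105202.9, chr19:39834458-39846379, minus strand), the methyltransferase fibrillarin, went from 214, 222 and 212 CPM to 336, 291 and 301 CPM, a log2 fold change of 0.52 ± 0.12, and NOP58 rose by 0.62 ± 0.10. In the pseudouridine-forming box H/ACA particle the catalytic subunit gene DKC1 rose by 0.47 ± 0.09 and NOP10 by 0.45 ± 0.12. The other H/ACA core genes were not called, with log2 fold changes of 0.36 ± 0.18 for GAR1 and 0.30 ± 0.16 for NHP2, though both were called higher without both outlying libraries. The chaperone gene NOLC1 rose by 0.75 ± 0.13.

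Small-subunit assembly held 7 genes called higher with lurbinectedin and 1 called lower, against 36% and 35.7% of all genes. BYSL, which encodes a late assembly factor, held 31.5, 30.7 and 32.0 CPM in control and 123, 96.5 and 106 CPM with lurbinectedin, a log2 fold change of 1.79 ± 0.20. UTP14A, a helicase cofactor, NOB1, the nuclease that makes the mature end of the small-subunit RNA, and RRP9, a snoRNP protein of early processing, rose by 1.496 ± 0.15, 1.25 ± 0.12 and 1.17 ± 0.17 on the log2 scale. RRP12, UTP4 and NOP14 rose by 0.79 ± 0.17, 0.78 ± 0.09 and 0.52 ± 0.15, and WDR43 was not called at 0.26 ± 0.14, but was called higher without both outlying libraries. UTP20 (ENSG00000120800.5, chr12:101280105-101386618, plus strand), a large scaffold protein of the early small-subunit precursor, was the gene called lower. It held 206, 231 and 226 CPM in control and 53.0, 62.3 and 62.3 CPM with lurbinectedin, and fell by 1.90 on the log2 scale with an SE of 0.10 (adjusted p = 1.44e-09).

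In large-subunit assembly 7 of 8 genes were called higher with lurbinectedin, against 36% of all genes. PES1 and BOP1, both of the PeBoW complex that matures the large-subunit RNA, behaved unlike its other core gene WDR12. PES1 held 149, 151 and 148 CPM in control and 436, 341 and 361 CPM with lurbinectedin, a log2 fold change of 1.35 ± 0.15, and BOP1 rose by 0.98 ± 0.19. WDR12 held 90.7, 92.9 and 87.4 CPM in control and 104, 100.5 and 99.8 CPM with lurbinectedin, a difference of 0.17 ± 0.11 that was not called (adjusted p = 0.181; 0.0380 without both outlying libraries). The differences between these genes were not tested. NOP16 and RRS1, both assembly factors, rose by 1.12 ± 0.12 and 0.79 ± 0.14 on the log2 scale. GNL3, which encodes nucleostemin, rose by 0.29 ± 0.11, a call lost when any of the 6 libraries was left out. NOP2, an RNA methyltransferase, and PPAN rose by 1.87 ± 0.17 and 1.78 ± 0.28, and P2RY11, which shares exons with PPAN, rose by 2.55 ± 0.18.

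**Figure D2:**
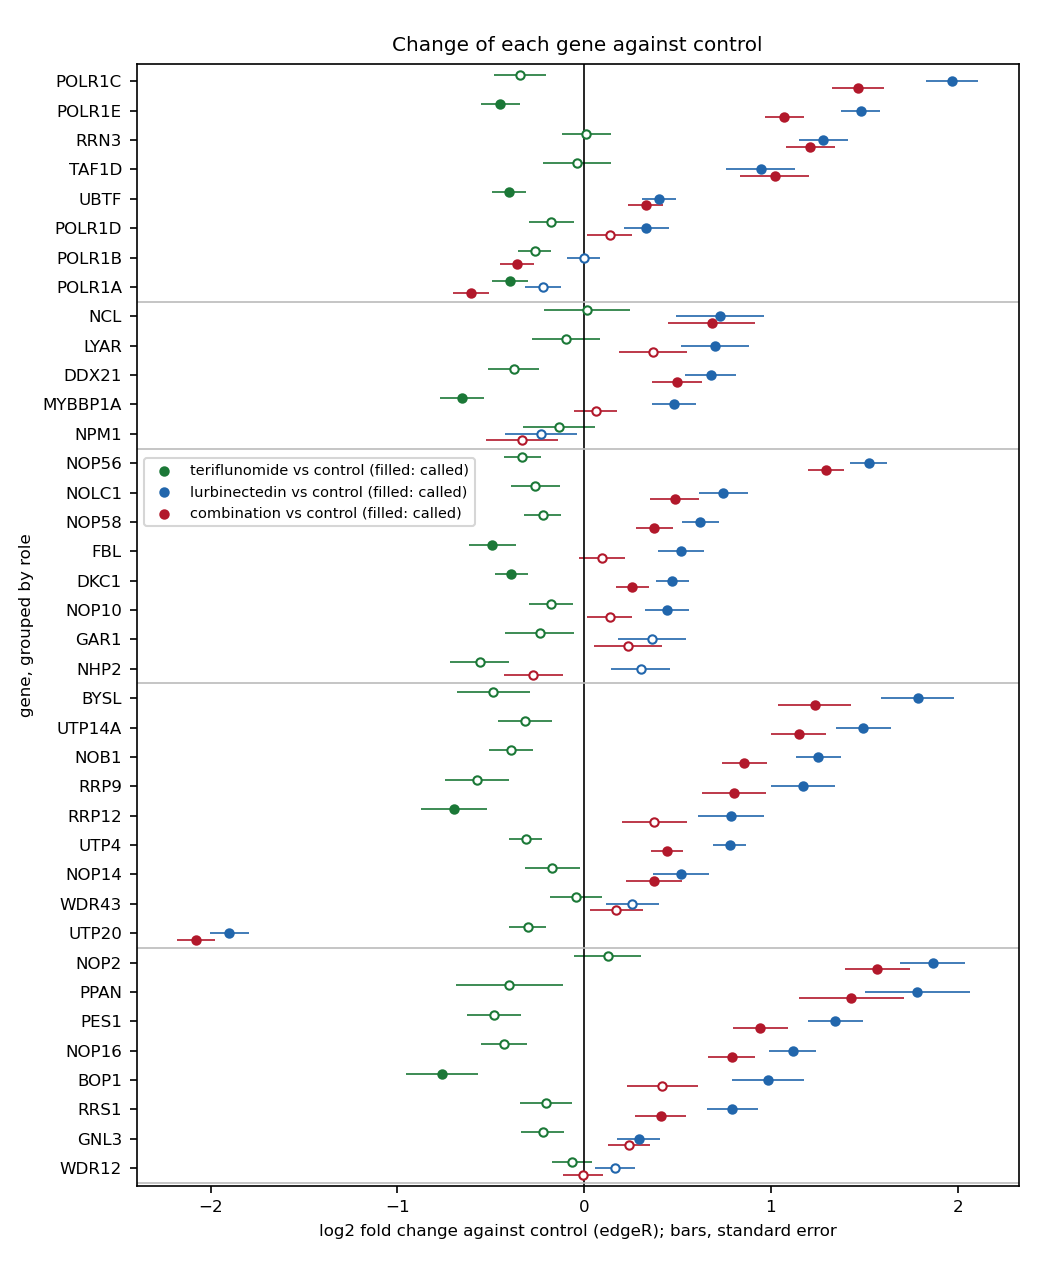
Log2 fold change against control (horizontal axis, bars show the standard error) for each of the 38 genes, grouped by role, with filled points where the adjusted p was under 0.05. Lurbinectedin points lie to the right of 0 for 34 genes, combination points lie closer to 0 than the lurbinectedin points for most genes, and 8 teriflunomide points are filled, all on the left.

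With teriflunomide alone, a minority of these genes was called lower, by small amounts. Against control 8 of the 38 genes were called lower and none higher, while 6.01% of all genes tested were called and 2.13% were called lower. A further look at unadjusted p under 0.05 gave 22 of the 38 genes, all lower, against 10.6% of all genes. The median log2 fold change was -0.32 over the 38 genes and 0.03 over all genes, and 35 of the 38 values were negative, against 46.2% of all genes. The teriflunomide libraries all lay below control for 26 genes and above for none, compared with 16.7% of all genes below. The genes called were POLR1A, POLR1E, UBTF, MYBBP1A, FBL, DKC1, RRP12 and BOP1, so each of the 5 roles was represented. Only MYBBP1A was called when any single control library was left out, and only BOP1, MYBBP1A and RRP12 without the second teriflunomide library.

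The largest fall was that of BOP1. Its control libraries held 126, 118 and 124 CPM and its teriflunomide libraries 90.1, 82.2 and 44.4 CPM, and it fell by 0.76 on the log2 scale with an SE of 0.19 (adjusted p = 0.0354). Teriflunomide libraries were all below control, and the third was far below the other pair. MYBBP1A held 135, 140 and 143 CPM in control and 101, 93.3 and 71.5 CPM with teriflunomide (log2 fold change -0.65 ± 0.12, adjusted p = 0.00699). RRP12 held 82.8, 89.7 and 90.1 CPM in control and 66.8, 60.2 and 34.9 CPM with teriflunomide (log2 fold change -0.70 ± 0.17). DKC1 had closer replicates, with 156, 162 and 155 CPM in control and 122, 118 and 121 CPM with teriflunomide (log2 fold change -0.39 ± 0.09). The remaining falls were -0.49 ± 0.12 for FBL, -0.45 ± 0.10 for POLR1E, -0.40 ± 0.10 for POLR1A and -0.40 ± 0.09 for UBTF.

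The third teriflunomide library stood apart within its group. It was the highest of its group for 16 genes and the lowest for 17, from a log2 ratio of -1.62 for PPAN to 0.89 for NCL against the mean of the other teriflunomide libraries. NPM1 held 1555, 1413 and 2470 CPM with teriflunomide and NCL 1311, 1212 and 2338 CPM, so the third library stood above all control libraries for both and the others below. Across the 38 genes that ratio had a Spearman correlation of -0.77 with the GC content of the longest annotated transcript, as a description over genes measured in the same libraries. The corresponding correlation was -0.28 for the second combination library. GC content also correlated with log2 fold changes, at -0.72 for teriflunomide against control and -0.67 for the combination against lurbinectedin. The first of these was -0.25 without the third teriflunomide library. For lurbinectedin and the combination, each against control, the values were 0.42 and 0.24. The part of base composition or of the mitochondrial share in the fold changes was not tested. Without the third teriflunomide library 17 of the 38 genes were called lower, against 3.6% of all genes. Without both outlying libraries 29 were called lower and none higher, against 7.07% of all genes lower, with a median of -0.34. Leaving out the second combination library, which enters this comparison through the shared estimate of the spread, gave 14 lower, against 2.53% of all genes. Without both outlying libraries NPM1 had a log2 fold change of -0.42 ± 0.08 and NCL of -0.35 ± 0.08, against -0.13 ± 0.19 and 0.02 ± 0.23 with every library. With library size as the only scaling the called genes were 4, namely DDX21, DKC1, NOLC1 and UBTF, against 0.545% of all genes called lower.

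**Figure D3:**
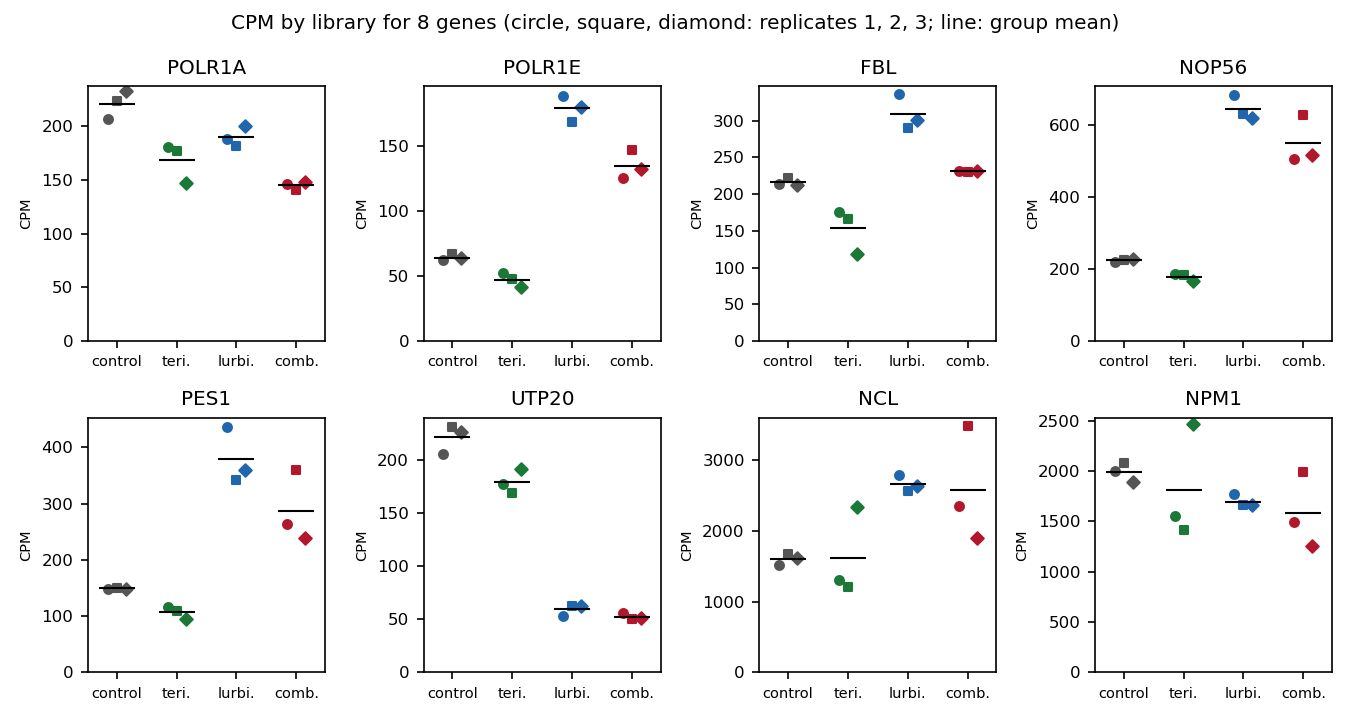
CPM (vertical axes from 0) of 8 genes in each of the 12 libraries, with the group mean as a line. POLR1E, NOP56 and PES1 were higher in every lurbinectedin and combination library than in any control library, UTP20 was lower in all of them, and the third teriflunomide and second combination libraries (diamond and square) stand above the others of their groups for NCL and NPM1.

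With the combination, fewer of these genes were above control than with lurbinectedin alone. Of the 38 genes, 22 were called higher and 3 lower, where 68.4% of all genes were called, 34.1% higher and 34.4% lower. The median log2 fold change was 0.39 over the 38 genes and 0.04 over all genes. The groups did not overlap for 27 genes on the higher side and 4 on the lower side, against 38.7% and 38.5% of all genes. With both outlying libraries left out, 25 were called higher and 5 lower, against 37.2% and 37% of all genes. The calls of DKC1, NCL, NOP14 and RRS1 were lost without the second combination library. This comparison shares its control libraries with those of either drug alone, so the values of the 3 comparisons are given side by side and no overlap between them is counted as a result.

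POLR1A held 146, 141 and 148.5 CPM with the combination, below every control and lurbinectedin library and below the first and second teriflunomide libraries at 180 and 177 CPM. The third teriflunomide library, at 147.5 CPM, lay among them. Its log2 fold change against control was -0.61 ± 0.10 with the combination, -0.40 ± 0.10 with teriflunomide and -0.22 ± 0.10 with lurbinectedin. POLR1B held 92.4, 80.9 and 88.3 CPM with the combination and was called lower by 0.36 ± 0.09 on the log2 scale. The catalytic subunits of RNA polymerase I were therefore the genes called lower beside UTP20. UTP20 held 55.9, 49.99 and 51.05 CPM and was lower by 2.08 ± 0.10, near its value with lurbinectedin alone.

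FBL showed opposite calls for the single drugs and no call for the combination. It held 176, 166 and 119 CPM with teriflunomide, 336, 291 and 301 CPM with lurbinectedin and 231, 230 and 232 CPM with the combination, against 214, 222 and 212 CPM in control. The log2 fold changes against control were -0.49 ± 0.12, 0.52 ± 0.12 and 0.10 ± 0.12 (adjusted p = 0.505 for the last). MYBBP1A, RRP12 and BOP1 gave the same pattern of calls, with combination values of 0.06 ± 0.12, 0.38 ± 0.17 and 0.42 ± 0.19. With library size as the only scaling, FBL, MYBBP1A and RRP12 were called with neither single drug, and BOP1 only with lurbinectedin. The teriflunomide calls of FBL, RRP12 and BOP1 were also lost when any single control library was left out. RRP12 and BOP1 were, without both outlying libraries, called higher with the combination, at 0.37 ± 0.08 and 0.38 ± 0.08, and FBL and MYBBP1A were not called. Genes with large rises under lurbinectedin were still called higher with the combination, such as POLR1C at 1.47 ± 0.14, NOP56 at 1.29 ± 0.10, BYSL at 1.24 ± 0.19, RRN3 at 1.21 ± 0.13 and PES1 at 0.94 ± 0.15. NHP2 held 51.5, 57.3 and 60.97 CPM, below control libraries of 67.6 to 69.3 CPM, but its log2 fold change of -0.27 ± 0.16 was not called. It was called lower without both outlying libraries, at -0.29 ± 0.09 (adjusted p = 0.00672).

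When teriflunomide was added to lurbinectedin the same downward direction appeared, but no gene passed the threshold in the fit of all 12 libraries. None of the 38 genes was called in the combination against lurbinectedin by edgeR, where 0% of all genes were called, and the smallest adjusted p was 0.151. At an unadjusted p under 0.05, 21 of the 38 genes were lower and none higher, against 5.77% and 9.81% of all genes. DESeq2 called 7 of the 38 genes lower, against 0.977% of all genes. The median log2 fold change was -0.32 over the 38 genes and 0.03 over all genes, and 37 of the 38 values were negative, against 46.7% of all genes. For 19 genes every combination library lay below every lurbinectedin library, compared with 12.5% of all genes.

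PES1 held 263, 360 and 238 CPM with the combination and 436, 341 and 361 CPM with lurbinectedin, and these ranges overlapped through the second combination library. For POLR1E the combination libraries held 126, 147 and 133 CPM, all below the 169 to 189 CPM of lurbinectedin (log2 fold change -0.41 ± 0.10). The corresponding values were 81.3, 106 and 90.8 CPM against 123 to 144 CPM for POLR1C (-0.50 ± 0.14) and 69.2, 73.8 and 78.8 CPM against 96.5 to 123 CPM for BYSL (-0.55 ± 0.19). The second combination library was the highest of its group for 29 of the 38 genes. Its median log2 ratio to the control mean was 0.62, against 0.33 and 0.25 in the other combination libraries and 0.66 to 0.80 in the lurbinectedin libraries.

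Leaving out outlying libraries raised the number of calls. Without the second combination library 4 genes were called lower, namely NOP16, PES1, RRS1 and UTP14A, against 0.276% of all genes. Without the third teriflunomide library, which is not in this comparison but enters its estimate of the spread, 15 were called lower, against 5.8% of all genes. Without both, 33 of the 38 genes were called lower and none higher, against 10.1% of all genes lower. In that fit POLR1C had a log2 fold change of -0.61 ± 0.08, PES1 of -0.60 ± 0.09 and BOP1 of -0.59 ± 0.08, while GNL3, TAF1D, UBTF, UTP20 and WDR12 were not called. The combination libraries then number 2, so each carries more weight.

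Whether teriflunomide acted differently with and without lurbinectedin was tested as the interaction, (combination minus lurbinectedin) minus (teriflunomide minus control). None of the 38 genes was called by edgeR, where 0.258% of all genes were called, and 1 had an unadjusted p under 0.05, against 10.3% of all genes. That gene was UBTF, with an interaction of 0.33 ± 0.13 (adjusted p = 0.393). The other values ran from -0.42 ± 0.24 for NOP2 to 0.29 ± 0.25 for RRP12, with standard errors of 0.12 to 0.39 over the 38 genes, so differences of that size were not detectable here. Without both outlying libraries POLR1C was called, with an interaction of -0.40 ± 0.12 (adjusted p = 0.0350), where 10.9% of all genes were called. Teriflunomide against control and the combination against lurbinectedin share no libraries. Of the 38 genes, 34 had a negative value in both, a share of 89.5%, against 29.7% of all genes. The exceptions were NCL, NOP2, RRN3 and TAF1D. Over the 38 genes both sets of fold changes correlated with GC content, at -0.72 and -0.67, and its part was not tested.

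**Figure D4:**
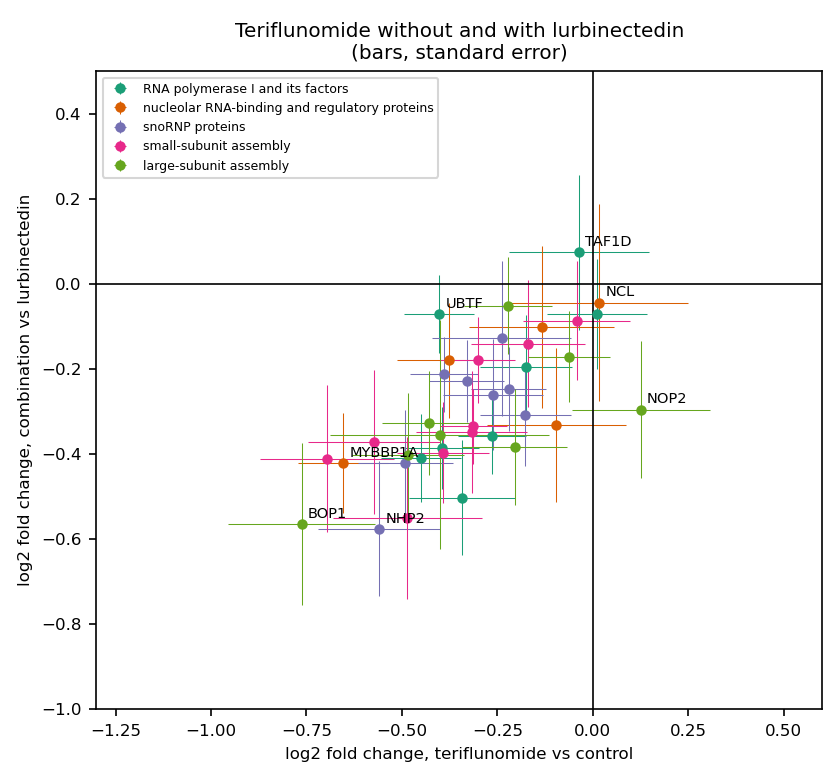
Log2 fold change with teriflunomide against control (horizontal axis) and with the combination against lurbinectedin (vertical axis) for the 38 genes, coloured by role, with standard errors as bars. Most points lie in the lower left part, with BOP1 and NHP2 among the lowest on both axes and TAF1D the single point above 0 on the vertical axis.

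Added to teriflunomide, lurbinectedin raised most of these genes. In the combination against teriflunomide 31 of the 38 genes were called higher and 1 lower, where 70.9% of all genes were called and 35.2% were called higher, with a median log2 fold change of 0.72. POLR1C rose by 1.81 ± 0.14, NOP56 by 1.63 ± 0.10 and POLR1E by 1.52 ± 0.11 on the log2 scale. UTP20 was lower by 1.78 ± 0.10. POLR1A, POLR1B, NPM1, NHP2, WDR12 and WDR43 were not called. The sum of the 38 genes' CPM was 8131 ± 234 in control, 7057 ± 1326 with teriflunomide, 11650 ± 535 with lurbinectedin, and it was 10220 ± 1947 for the combination. NCL and NPM1 carry much of this sum, and without them it was 4539 ± 104, 3625 ± 158, 7296 ± 356 and 6070 ± 765 CPM in that order.

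The length of a gene on the chromosome went with part of the lurbinectedin response. Across all genes tested the median log2 fold change with lurbinectedin was 0.67 for genes spanning less than 10 kb, 0.43 for 10 to 30 kb, -0.10 for 30 to 60 kb and -1.46 for 60 kb and over. The medians of the 38 genes in these classes were 0.96 (8 genes), 0.69 (16 genes), 0.84 (8 genes) and 0.25 (6 genes). UTP20, which fell, spans 106.5 kb, whereas UTP4 rose at 99.8 kb. Across the 38 genes the Spearman correlation of span with the log2 fold change was -0.29, and -0.24 without UTP20. The correlation with control CPM was -0.53, so genes with high control levels tended to have smaller rises. Both are descriptions over genes of the same libraries, and log2 fold change and control CPM share the control values.

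**Figure D5:**
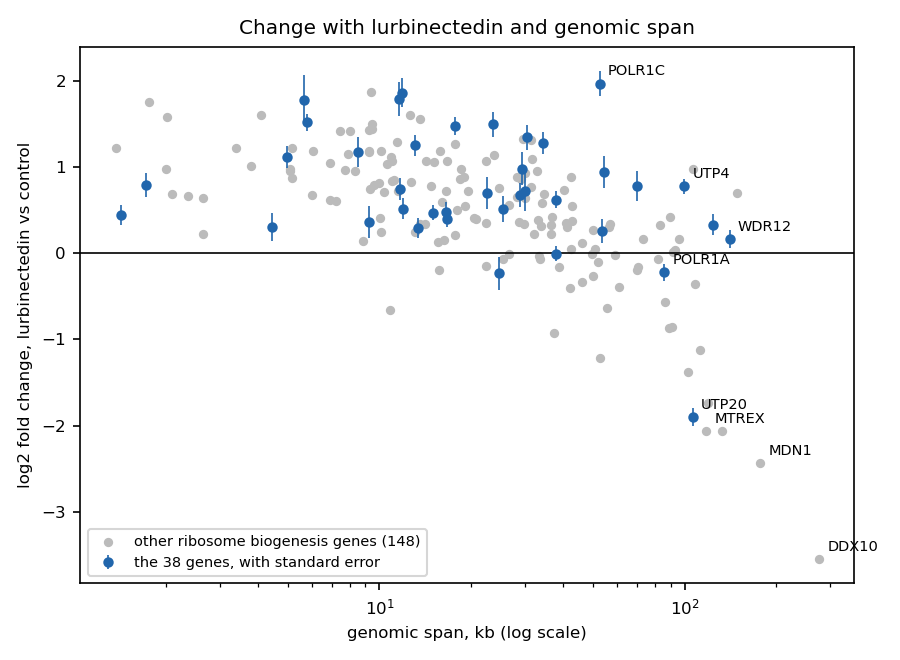
Log2 fold change of lurbinectedin against control (vertical axis) by genomic span in kb (horizontal axis, log scale) for the 38 genes (blue, with standard errors) and 148 other ribosome biogenesis genes (grey). Most genes under 60 kb lie above 0, and UTP20, MTREX, MDN1 and DDX10, all over 100 kb, lie well below 0 at the right.

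The same directions were seen in a wider list of 148 other ribosome biogenesis genes, all of which passed the filter. With teriflunomide 10 were called lower and none higher, with a median of -0.17, where 2.13% of all genes were called lower. With lurbinectedin 90 were called higher and 18 lower, with a median of 0.60, against 36% and 35.7% of all genes. With the combination 72 were called higher and 22 lower, with a median of 0.31, against 34.1% and 34.4% of all genes. In the combination against lurbinectedin none was called by edgeR, 56 had an unadjusted p under 0.05, all of them lower, against 5.77% of all genes lower, and 136 of the 148 values were negative, against 46.7% of all genes. Among called genes whose groups did not overlap and whose higher group averaged 5 CPM or more, the highest rises by role were those of SIRT7, a deacetylase that acts on RNA polymerase I transcription, ZNHIT3, a snoRNP assembly factor, NOL6, of small-subunit assembly, NLE1, of large-subunit assembly, and POP7, an RNase P and MRP subunit. Their log2 fold changes with lurbinectedin were 1.87 ± 0.21, 0.83 ± 0.13, 1.61 ± 0.23, 1.56 ± 0.19 and 1.23 ± 0.19.

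By the same rule, the largest falls by role were those of genes with long spans. DDX10, an RNA helicase gene of 275.9 kb, went from 85.3 ± 2.54 CPM in control to 7.28 ± 0.941 CPM with lurbinectedin, a log2 fold change of -3.55 ± 0.18. MDN1, which encodes the large ATPase midasin and spans 177 kb, had -2.44 ± 0.15. The exosome helicase gene MTREX, at 118 kb, had -2.06 ± 0.13, SHQ1, a chaperone of the DKC1 protein at 113 kb, had -1.12 ± 0.14, and TAF1B, a promoter selectivity factor gene at 91.0 kb, had -0.86 ± 0.11. For context, DHODH fell by 0.54 on the log2 scale with teriflunomide, with an SE of 0.12 (adjusted p = 0.0186). It rose by 0.43 ± 0.12 with lurbinectedin (adjusted p = 0.00435) and was not called with the combination, at 0.04 ± 0.12 (adjusted p = 0.801).

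Several of these genes also carry snoRNA genes in their introns or exons. In GENCODE 29, 34 snoRNA genes on the same strand lie inside 9 of the 38 genes, among them 8 in TAF1D, 6 in GNL3 and 5 in NOP56. With lurbinectedin 8 of these 9 host genes were called higher, with a median of 0.73, compared with 22 of the other 29 and a median of 0.70. Of all genes tested, 36% were called higher. The snoRNAs themselves were not measured by this type of library. TAF1D shares exonic bases with SNORA25 and other small RNA genes, so part of its counts is uncertain.

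The start sites of the 38 genes are shown because most of these genes rose with lurbinectedin and many are known targets of MYC, which binds the E-box CACGTG. Promoter windows of 250 bases before to 50 bases after RefSeq start sites (GRCh38.p14) were found for 32 of the 38 genes. CACGTG, a palindrome and so the same on both strands, was in a window of 16 of the 32 genes. It was in 8.78% of 27305 genes with windows of the same length, a set that includes genes not tested here. The ETS motif CCGGAAGT, searched on both strands, was in 8 of the 32 and 4.95% of the same 27305 genes. TATAAA, searched on both strands, was in 1 of the 32, UTP20, and 14.0% of the same 27305 genes. The UTP20 match was on the opposite strand, with its first base at -160 from an annotated start site. The 7 windows below surround the E-box, in capitals, of genes whose values are given above, 5′ to 3′ on the gene's strand.
UTP20: ttttttccgtcCACGTGacccactcagg
FBL: gcgctcttttcCACGTGcgaaagccccg
MYBBP1A: gggccggagcaCACGTGtttcgtgtttc
BYSL: tcttcagtcccCACGTGcgatccttccc
PES1: ccttggcagggCACGTGcgggaggaagt
RRP9: ggttcagctgcCACGTGagttctgcggc
UTP4: gagcgcgcgcgCACGTGgggccggggcg

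These windows lie at chr12:101280084-101280111 on the plus strand for UTP20, chr19:39846357-39846384 on the minus strand for FBL, chr17:4555341-4555368 on the minus strand for MYBBP1A and chr6:41921516-41921543 on the plus strand for BYSL. Those of PES1, RRP9 and UTP4 lie at chr22:30591881-30591908 (minus), chr3:51941893-51941920 (minus) and chr16:69132622-69132649 (plus). UTP20, which fell with lurbinectedin, and BYSL and PES1, which rose, each have the same 6 letters near an annotated start site. The median log2 fold change with lurbinectedin was 0.60 for the 16 genes with an E-box and 0.60 for the 16 without. With teriflunomide the medians were -0.31 and -0.34. A match describes the letters of the window and not binding.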

How the data were processed

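The authors deposited raw read counts per gene, 1 table per library. Per the submitters' processing notes the tools were fastp 0.23.2, STAR 2.7.9 and featureCounts of Subread, with hg38; strand use and the treatment of reads in overlapping genes are not given in the sources used here. Counts were analysed with edgeR 4.0.16 in R 4.3.3: filterByExpr (16683 genes kept), TMM scaling, a robust quasi-likelihood fit of all 12 libraries with 1 mean per group, and Benjamini-Hochberg adjustment over all genes in each of 6 contrasts. The biological coefficient of variation was 14.5%. Standard errors came from the F statistic. CPM and RPKM are given as mean ± SD over libraries. Scripts were tested on simulated counts. Alternatives included DESeq2 1.42.0, other scalings and filters, a replicate block, the TREAT test of edgeR against a 1.5-fold change and leaving out libraries. The 38 genes, the wider list and the markers were chosen with earlier results of these data known. Named genes are all 38 and, for each role of the wider list, the called gene with the largest rise and fall with lurbinectedin (mean of at least 5 CPM, groups not overlapping), with DHODH for context; the values of some other genes that met the rule or the marker lists are not reported here. Exon overlaps came from the exon coordinates given with the deposited counts, snoRNA genes from GENCODE 29 and promoter windows from RefSeq. Of the 60649 identifiers counted, 37318 had the same version in GENCODE 29, all with the same start and end. GC content is that of the longest protein-coding transcript. The gene P2RY11 was added after its values were seen.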

Additional observations from a re-analysis of the deposited data

How the results depend on the processing

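The number of the 38 genes called with teriflunomide (8) changed under most alternatives. It was 17 with DESeq2, 15 with no expression filter, 4 with library size as the only scaling, 2 with only the groups compared in the fit, 1 at an adjusted p under 0.01, 0 with the TREAT test, 1 to 17 when single libraries were left out (14 without the second combination library, which is not in that contrast), and 29 without both libraries of high mitochondrial share; all calls were lower. Of all genes, 11.4% were called with DESeq2, 5.06% with no expression filter, 1.59% with library size alone and 1.83% with only the groups compared. The share was 1.38% at an adjusted p under 0.01, 0.198% with TREAT and 16.3% without both libraries. It was 1.26% to 9.11% without single control or teriflunomide libraries, and 6.74% without the second combination library. NCL turned from 0.02 to -0.35 without both libraries. For the combination against lurbinectedin (0 called), DESeq2 gave 7, no filter 4, only the groups compared 3, single libraries left out 0 to 15, and both left out 33, all lower. Of all genes, 3.5% were called with DESeq2, 1.72% with no filter and 0.612% with only the groups compared. The share was 12.1% without the third teriflunomide library, which gave the 15, and 21.5% without both. TREAT gave 17 with lurbinectedin (31), 13 with the combination (25) and 19 for the combination against teriflunomide (32). Of all genes, TREAT called 48.1%, 43.6% and 47.1% in these comparisons. The interaction (0 called) gave 1 without both libraries, where 10.9% of all genes were called. The ratio of the summed CPM of lurbinectedin to control was 1.43, and 1.22 with library size as the only scaling. The causes were not tested. Leaving out a library of another group, which changes the shared estimate of the spread and the genes that pass the filter, was added after seeing the data.

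With a replicate block, 1 gene was called with teriflunomide and 31 with lurbinectedin, against 2.49% and 69.5% of all genes. Same-numbered libraries did not deviate together (correlations from -0.402 to 0.144). The third teriflunomide and second combination libraries weigh on these deviations, so the correlations cannot settle whether the numbers pair the libraries. Precision is limited by 3 libraries a group and, for NOP2 and PPAN, by as few as 66 counts.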
